A study of Mus musculus with 13 samples.

Results

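The 10 genes described here are fibroblast matrix and mesenchymal genes that mark the feeder fibroblasts on which mouse embryonic stem cells are often grown: Col1a1, Col1a2, Col5a2, Col6a1, Dcn, Lox, Acta2, Thy1, Vim and S100a4. They were chosen by name, with earlier results of these data known, as probes annotated with exactly 1 gene symbol from this set. All 10 were on the array, with 16 of its 20205 probes, among 9669 genes with at least 1 such probe. The study hybridised RNA from sources named NT1 and TBV together on 13 two-colour arrays, with NT1 in Cy5 on 7 arrays and TBV in Cy5 on 6. The series title places Sall4 -/- beside NT1. The labels give no genotype for TBV, no cell type, no culture on or off feeder cells, and no number of clones or animals. All values below are log2 ratios of NT1 over TBV, so a positive value means more signal in NT1.

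Sources were combined in 4 ways, written NT1 source/TBV source: NT1p14/TBVp13 (5 arrays), NT1p12/TBVp13 (2 arrays), NT1p12/TBVp12 (4 arrays) and NT1 1/TBV2 (2 arrays). The p number of a source was taken to be its passage. NT1p12/TBVp13 shares its NT1 source with the third pair and its TBV source with the first. The other 3 pairs share no named RNA source with each other. They may still be passages of the same lines, so n = 3 below counts pairs and not clones or cultures. Arrays of a pair carry the same named RNA sources and are technical repeats. The arrays held 14314 to 18381 probe values each. Of the 201 values of the 16 probes, 111 (55.2%) had been deposited as whole numbers, against 19.3% of the whole table. How their decimals were lost is not given, and a whole-number 0 may cover ratios on either side of it. The member value with decimals farthest from 0 was -0.94, for Acta2 in NT1 1/TBV2. Member values farther from 0 were all whole numbers, so large ratios are known only coarsely. The numerator of the deposited ratio is not given in the sources used here, so the sign of the whole table rests on reading it as Cy5 over Cy3. Exchanged labels in a single pair cannot be told apart from a difference between its RNAs.

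Fibroblasts secrete fibrillar collagens and the proteins that space and crosslink them. They carry vimentin filaments, and those that turn contractile assemble smooth muscle actin into stress fibres. Undifferentiated mouse embryonic stem cells make little type I collagen, so RNA of these genes in such cultures is commonly taken as a sign of feeder or differentiated cells, although Vim is also expressed by stem cells themselves. In RNA from whole cultures, fewer cells of a type and less RNA per cell cannot be told apart.

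RefSeq promoters (GRCm38.p6, 250 bases before to 50 after the annotated start) were matched for 5 of the 10 genes by symbol. Those of Vim, S100a4, Col1a2 and Acta2 are shown because each had a probe that passed the test of the difference between the 2 larger source pairs. Capitals mark matches to 3 motifs searched on both strands. These were TATAAA as a core promoter element, then CCAAT as the box bound by NF-Y, and the CArG box, none of which overlapped another.
Vim, chr2:13574061-13574360, + strand: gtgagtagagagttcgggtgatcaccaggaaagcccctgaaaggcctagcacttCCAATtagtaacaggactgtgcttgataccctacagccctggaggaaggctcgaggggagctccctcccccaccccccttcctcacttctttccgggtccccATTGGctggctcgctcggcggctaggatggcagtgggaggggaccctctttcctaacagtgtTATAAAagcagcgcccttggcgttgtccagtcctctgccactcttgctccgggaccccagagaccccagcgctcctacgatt
S100a4, chr3:90603520-90603819, + strand: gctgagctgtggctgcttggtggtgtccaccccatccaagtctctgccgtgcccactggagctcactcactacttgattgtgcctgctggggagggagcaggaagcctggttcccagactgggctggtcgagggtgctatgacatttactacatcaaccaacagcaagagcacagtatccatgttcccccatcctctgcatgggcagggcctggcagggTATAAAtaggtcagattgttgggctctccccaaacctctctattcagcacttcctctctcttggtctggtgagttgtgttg
Col1a2, chr6:4505368-4505667, + strand: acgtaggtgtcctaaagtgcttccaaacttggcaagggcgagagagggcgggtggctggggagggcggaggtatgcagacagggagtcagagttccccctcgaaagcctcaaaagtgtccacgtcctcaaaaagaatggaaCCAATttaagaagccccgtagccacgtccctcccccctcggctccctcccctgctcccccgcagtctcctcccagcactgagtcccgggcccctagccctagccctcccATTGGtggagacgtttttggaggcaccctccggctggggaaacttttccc
Acta2, chr19:34255324-34255623, - strand: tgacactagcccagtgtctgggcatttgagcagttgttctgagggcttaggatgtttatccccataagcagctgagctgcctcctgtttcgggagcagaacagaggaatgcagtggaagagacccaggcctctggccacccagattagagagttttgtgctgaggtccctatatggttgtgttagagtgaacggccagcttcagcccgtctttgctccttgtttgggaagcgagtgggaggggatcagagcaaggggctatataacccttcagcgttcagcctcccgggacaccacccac

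TATAAA began 32 bases before the start in Vim and 31 bases before it in S100a4. The motif occurs in 14.2% of 27025 promoter windows of the same length. CCAAT occurred at 2 places each in Vim and Col1a2, and in 37.9% of all windows. The CArG box was searched only in its exact spelling, CC, then 6 bases that are each A or T, then GG, which occurs in 1.57% of all windows and had 0 matches in those shown. Elements with a mismatch were not searched, and the CArG elements of the Acta2 promoter known to bind serum response factor depart from the exact spelling. A match describes letters in the window and not a bound site, and no match says nothing about binding.

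Acta2, Col1a1, Vim, S100a4 and Col5a2 had ratios above 0 in NT1p14/TBVp13 and below 0 in both NT1p12/TBVp12 and NT1 1/TBV2. Of the 10 genes, 5 had this pattern by the mean of their probes. Over the 7976 genes measured in the 3 pairs that share no source, 16.5% had it. In the lists of related mesenchymal genes described below the share was 20% to 46.2%. It was 40% in parietal endoderm markers, 30.8% in embryonic stem cell markers and 25% in cell cycle genes. The share was 8.33% in ribosomal protein genes and 0% in epithelial, macrophage and blood, and endothelial markers. The median over the 10 genes was 0.44 in NT1p14/TBVp13, 0.12 in NT1p12/TBVp13, -0.43 in NT1p12/TBVp12 and -0.61 in NT1 1/TBV2. The same median over all genes lay between -0.01 and 0.03. A single array moved the first of these medians to 0.19 (without array 3) or 0.67 (without array 5), and the third to -0.26 (without array 4).

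**Figure D1:**
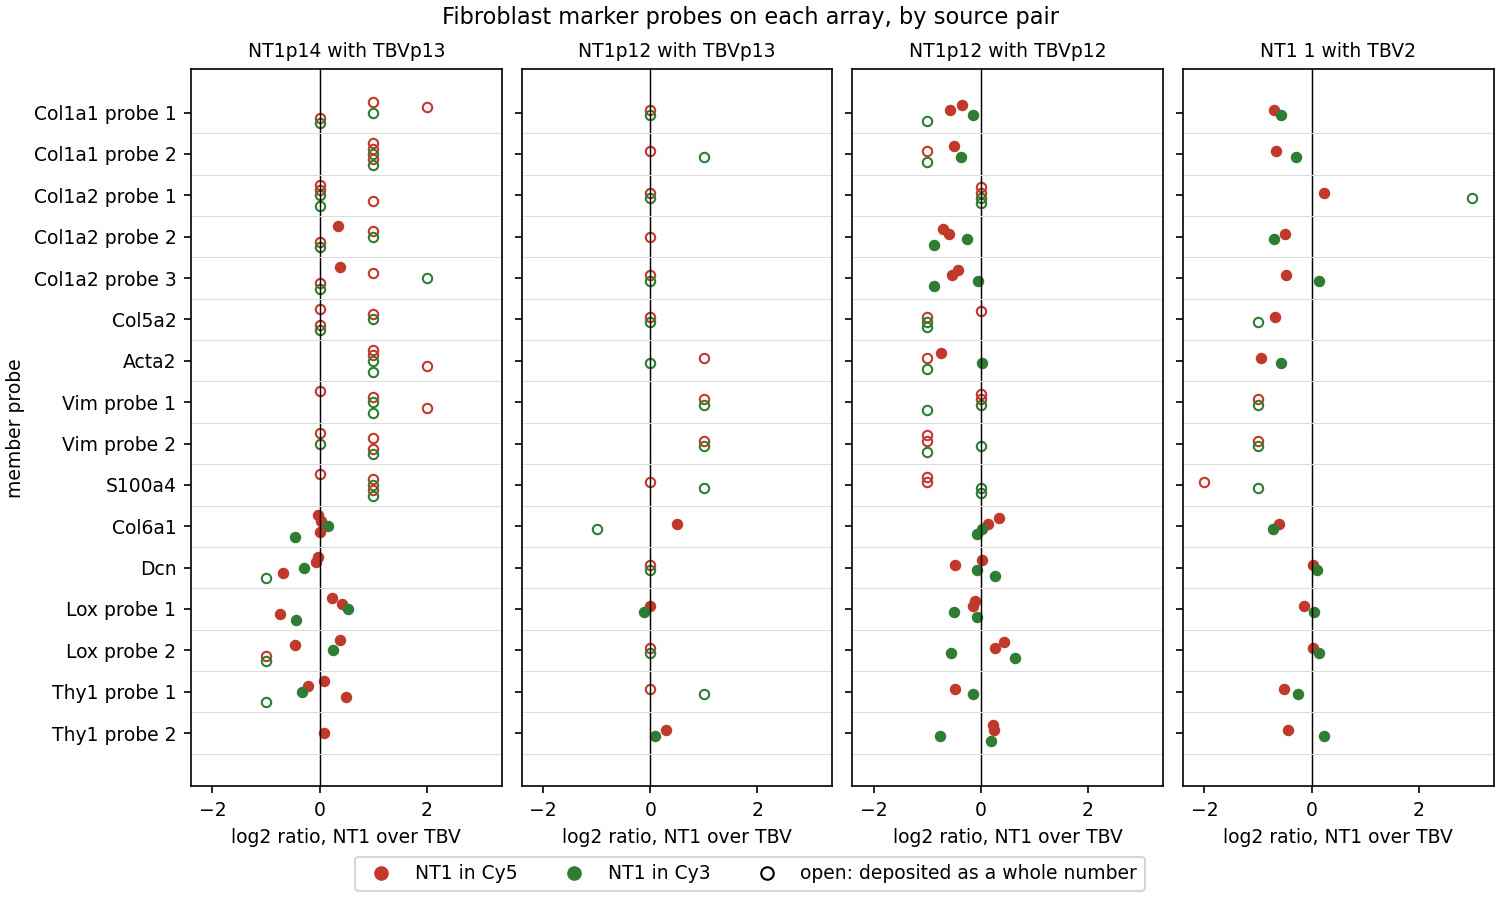
Each point is the log2 ratio of NT1 over TBV of 1 probe on 1 array, with a panel for each source pair, colour for the dye of NT1, and open points for values deposited as whole numbers. The probes of Col1a1, Acta2, Vim and S100a4 lie at or above 0 with TBVp13 and, apart from 1 Acta2 value of 0.02, at or below 0 with TBVp12 and TBV2.

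Type I collagen, the main fibril of connective tissue, is built of the chains Col1a1 and Col1a2. Probe 2 of Col1a1 (identifier 4861) read 1 on all 5 arrays of NT1p14/TBVp13. On the arrays of NT1p12/TBVp12 it read -0.50, -1, -0.37 and -1, in NT1 1/TBV2 -0.66 and -0.29, and in NT1p12/TBVp13 0 and 1. The NT1p14/TBVp13 arrays overlapped neither those of NT1p12/TBVp12 nor those of NT1 1/TBV2. Probe 1 of Col1a1 (4830) read 1, 2, 1, 0 and 0 in NT1p14/TBVp13, against -0.35, -0.57, -0.15 and -1 in NT1p12/TBVp12. These did not overlap as deposited, but the whole-number 0 readings may hide an overlap. Probe 1 read -0.71 and -0.56 in NT1 1/TBV2, and 0 on both arrays of NT1p12/TBVp13.

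The 3 probes of Col1a2 disagreed. Probe 2 (19481) read 0.34, 1, 1, 0 and 0 in NT1p14/TBVp13, against -0.72, -0.60, -0.26 and -0.87 in NT1p12/TBVp12. It was at -0.49 and -0.69 in NT1 1/TBV2. Probe 3 (19568) followed it in both of the larger pairs, with 0 to 2 in NT1p14/TBVp13 and -0.88 to -0.06 in NT1p12/TBVp12. Probe 1 (18403) read 0 on 10 of 13 arrays and was never below 0, with 3 on array 2 of NT1 1/TBV2. The mean over the 3 probes, 0.29 in NT1 1/TBV2, was therefore positive because of probe 1, whose pair value there was 1.62, and Col1a2 is uncertain.

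Col5a2, a chain of the type V collagen that assembles within type I fibrils, read 0, 1, 1, 0 and 0 in NT1p14/TBVp13, against 0, -1, -1 and -1 in NT1p12/TBVp12. It read -0.68 and -1 in NT1 1/TBV2 and 0 on both arrays of NT1p12/TBVp13. The 2 larger pairs met at 0, and 12 of its 13 values were whole numbers.

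Acta2, the smooth muscle actin of contractile fibroblasts, read 1, 1, 1, 2 and 1 in NT1p14/TBVp13. In NT1p12/TBVp12 it read -0.74, -1, 0.02 and -1, and in NT1 1/TBV2 -0.94 and -0.56. The first pair lay above every array of these 2 pairs. In NT1p12/TBVp13 the values were 1 and 0.

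Vim, which encodes the intermediate filament of mesenchymal cells, had 2 probes on which all 26 values were whole numbers. Probe 1 (5093) read 0, 1, 1, 2 and 1 in NT1p14/TBVp13 and 1 on both arrays of NT1p12/TBVp13, against 0, 0, 0 and -1 in NT1p12/TBVp12 and -0.998 and -1 in NT1 1/TBV2. Probe 2 (19405) read 0, 1, 0, 1 and 1 in NT1p14/TBVp13, against -1, -1, 0 and -1 in NT1p12/TBVp12, and equalled probe 1 in the other pairs. Vim was the gene with the highest value in NT1p12/TBVp13.

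S100a4, a calcium-binding protein also called fibroblast-specific protein, read 0, 1, 1, 1 and 1 in NT1p14/TBVp13, against -1, -1, 0 and 0 in NT1p12/TBVp12. It read -1.998 and -1 in NT1 1/TBV2, the lowest pair value of the 10 genes at -1.499, and 0 and 1 in NT1p12/TBVp13. All 13 values were whole numbers, and both larger pairs held a value of 0. S100a4 is also expressed by macrophages.

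The remaining genes were Col6a1, Dcn, Lox and Thy1. Col6a1, a chain of the beaded filaments around cells, lay between -0.46 and 0.17 in NT1p14/TBVp13 and between -0.07 and 0.34 in NT1p12/TBVp12. It was at -0.61 and -0.72 in NT1 1/TBV2, below Col1a1 in that pair, and its arrays of NT1p12/TBVp13 read 0.51 and -1. Dcn, the proteoglycan decorin that binds collagen fibrils, read -0.02, -0.06, -0.28, -0.68 and -1 in NT1p14/TBVp13, against -0.49 to 0.26 in NT1p12/TBVp12. Its pair value in NT1p14/TBVp13 was -0.45, opposite in sign to those of Col1a1 and Acta2.

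Lox, the enzyme that crosslinks collagen and elastin, split by array within NT1p14/TBVp13. Probe 1 (1601) read 0.24, 0.42 and 0.53 on arrays 1 to 3 and -0.74 and -0.45 on arrays 4 and 5. Probe 2 (18432) read 0.37, -0.45, 0.24, -1 and -1. In the other 3 pairs the Lox probes lay between -0.56 and 0.64, and their pair means between -0.20 and 0.20. On arrays 4 and 5, where Dcn was also lowest, 29.4% and 39.2% of all values were whole numbers, against 14.8% to 18.7% on arrays 1 to 3.

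Thy1, a surface glycoprotein used to sort fibroblasts, lacked values on 6 of 26 probe and array combinations. Probe 1 (1982) had pair values of -0.27, -0.32 and -0.38 in NT1p14/TBVp13, NT1p12/TBVp12 and NT1 1/TBV2, and 0.50 in NT1p12/TBVp13. Probe 2 (17298) had 1 value in NT1p14/TBVp13 and lay between -0.77 and 0.30 elsewhere.

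The first test asked whether NT1 differed from TBV across the 3 pairs that share no source. In limma 0 of 15973 probes passed an adjusted p of 0.05 (0%), and 164 had an unadjusted p under 0.05. None of the 15 member probes tested passed, at an adjusted p of 1.00 for each. Acta2 averaged -0.09 ± 1.09 (SD, n = 3), Col1a1 -0.10 ± 0.84, Vim -0.24 ± 0.92 and S100a4 -0.39 ± 1.17, each by the mean of its probes. For these genes the spread between pairs exceeded the mean. Thy1 probe 1 averaged -0.32 ± 0.05 (SD, n = 3) and alone among the member probes had an unadjusted p under 0.05. In limma its adjusted p was 1.00, and its second probe had no array with TBV in Cy5 in NT1p14/TBVp13 and could not be tested.

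The second test compared NT1p14/TBVp13 against NT1p12/TBVp12 directly, with their 9 arrays and a dye term in limma. The arrays are repeats, so these p-values describe the 2 pairs of RNA sources as hybridised and no new preparation or passage. Of 14 member probes tested, 6 were higher in the first pair past an adjusted p of 0.05 and 0 were lower. Of all 14464 probes 8.34% were higher and 7.62% lower, and 5612 had an unadjusted p under 0.05 in either direction. The 6 probes stood for 6 of the 9 genes tested. Acta2 differed by 1.88 ± 0.30 (SE; limma adjusted p = 0.030), Col1a1 probe 2 by 1.72 ± 0.17 (limma adjusted p = 0.030) and S100a4 by 1.36 ± 0.24 (limma adjusted p = 0.032). Vim probe 2 differed by 1.36 ± 0.33 (limma adjusted p = 0.038), Col5a2 by 1.14 ± 0.33 (limma adjusted p = 0.049) and Col1a2 probe 2 by 1.09 ± 0.27 (limma adjusted p = 0.039).

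The calls were close to the threshold and rested on single arrays. Without array 2 or 5 of NT1p14/TBVp13, or array 1, 2 or 4 of NT1p12/TBVp12, 0 member probes passed, and 0 of all probes did. Without array 4 of NT1p14/TBVp13 3 passed, without array 3 of that pair 4, and without array 1 of it 7. Over the 9 fits without 1 array, Acta2 lay between 1.68 and 2.13, Col1a1 probe 2 between 1.61 and 1.84 and S100a4 between 1.25 and 1.5, with adjusted p from 0.013 to 0.11 in limma. Without arrays 4 and 5 of NT1p14/TBVp13, which held the most whole numbers, the same genes differed by 1.72, 1.72 and 1.30, and 0 member probes passed. With all values rounded to whole numbers 0 member probes passed, and 34 of all probes did. Col1a1 probe 2 had the smallest SE of the member probes that passed. It read the same whole number on every array of NT1p14/TBVp13, so rounding may understate its spread. Acta2, Col5a2, Vim probe 2 and S100a4 also read only whole numbers in that pair, and Col1a2 probe 2 had decimals only on array 1. The SE and adjusted p of these probes carry the same limit. With arrays scaled to a common spread 5 member probes passed. Col5a2 then missed the threshold at 0.90 (limma adjusted p = 0.054), and S100a4 at 0.89 and Vim probe 2 at 0.91 passed with smaller differences.

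Of the 8 probes that missed the threshold, 3 were Col1a1 probe 1 at 1.29 ± 0.41, Vim probe 1 at 1.23 ± 0.38 and Col1a2 probe 3 at 1.18 ± 0.41 (SE; limma adjusted p = 0.059, 0.057 and 0.071). Col1a2 probe 1, at 0.18 ± 0.22 (SE; limma adjusted p = 0.57), did not share the call of probe 2. Col6a1 at -0.18 ± 0.16, Dcn at -0.35 ± 0.25 and Lox at 0.20 ± 0.29 and -0.58 ± 0.38 had adjusted p from 0.27 to 0.63 in limma. By array values as deposited, 5 of the 14 probes lay on every array of NT1p14/TBVp13 above every array of NT1p12/TBVp12, against 7.04% of all probes. They were both Col1a1 probes, Col1a2 probes 2 and 3, and Acta2. For Col1a1 probe 1 and Col1a2 probes 2 and 3 the lowest value of NT1p14/TBVp13 was a whole-number 0. Such a 0 may cover ratios on either side of it, so the separation of these probes is uncertain.

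**Figure D2:**
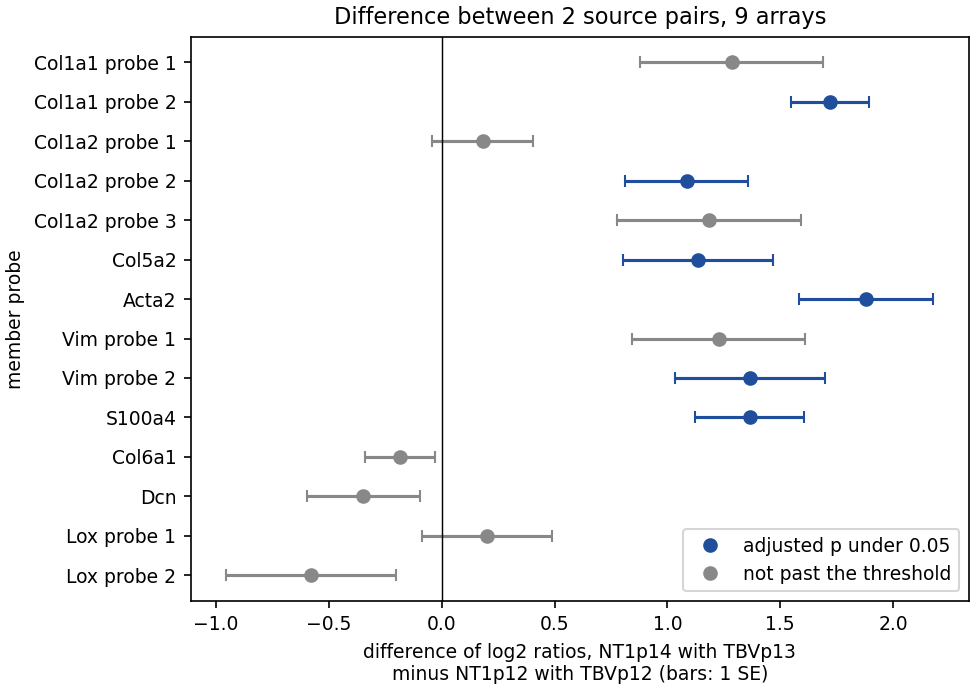
Points show the difference of the log2 ratio between NT1p14/TBVp13 and NT1p12/TBVp12 for the 14 member probes tested on 9 arrays, and bars show 1 SE of the limma fit. Blue points passed an adjusted p of 0.05: Acta2, Col1a1 probe 2, Col1a2 probe 2, Col5a2, Vim probe 2 and S100a4.

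Within the same fit each pair could be set against 0. In NT1p14/TBVp13, Acta2 at 1.20 ± 0.20, Col1a1 probe 2 at 1.00 ± 0.11 and S100a4 at 0.86 ± 0.16 were higher in NT1 (SE; limma adjusted p = 0.045 for each), among 2.63% of all probes. In NT1p12/TBVp12 0.0484% of all probes were lower in NT1, and 0 member probes were. There Col1a1 probe 2 was at -0.72 ± 0.13 (SE; limma adjusted p = 0.10) and Acta2 at -0.68 ± 0.22 (SE; limma adjusted p = 0.25). NT1 1/TBV2 had 2 arrays and was given no test of its own.

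In 4 genes the ratio was above 0 in both pairs with TBVp13 and below 0 in the other two, against 5.16% of the 7291 genes measured in all 4 pairs. Acta2 stood at 1.17 and 0.50 in the pairs with TBVp13 (NT1p14 first), against -0.68 with TBVp12 and -0.75 with TBV2. Col1a1 stood at 0.88 and 0.25 with TBVp13, against -0.62 with TBVp12 and -0.56 with TBV2. Vim stood at 0.79 and 1 with TBVp13, against -0.50 with TBVp12 and -0.999 with TBV2. S100a4 stood at 0.83 and 0.50 with TBVp13, against -0.50 with TBVp12 and -1.499 with TBV2. The 2 pairs with TBVp13 share that source, so they are not separate evidence. In NT1p12/TBVp13 Acta2 and S100a4 each rest on a 1 and a 0, and Col1a1 on a single 1 among 4 values, the others being 0.

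**Figure D3:**
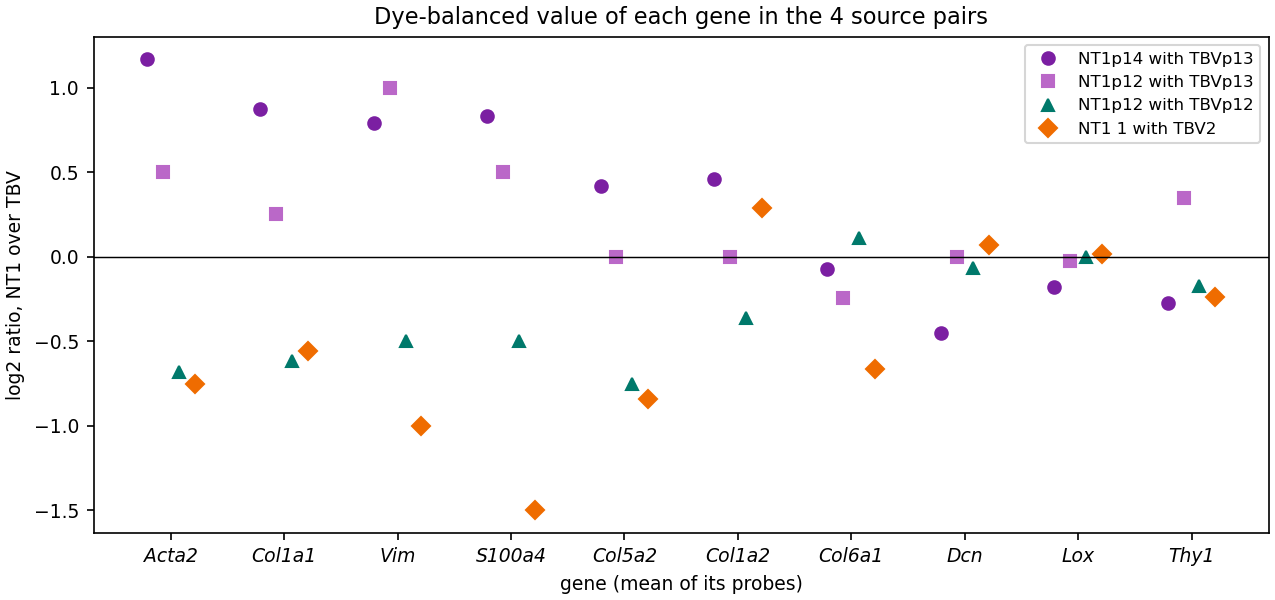
Each symbol is the dye-balanced log2 ratio of NT1 over TBV of 1 gene, as the mean of its probes, in 1 source pair. Acta2, Col1a1, Vim and S100a4 lie above 0 with TBVp13 (purple shades) and below 0 with TBVp12 and TBV2, while Dcn and Lox lie within 0.45 of 0 in all 4 pairs.

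Shared sources also give differences between passages of a line, with 1 source each and no test. For TBVp13 minus TBVp12, both set against NT1p12, the median over the 10 genes was -0.63, against 0.00 over all genes. Vim was lowest at -1.5, followed by Acta2 at -1.18, S100a4 at -1 and Col1a1 at -0.87, and Col6a1 was highest at 0.35. For NT1p14 minus NT1p12, both set against TBVp13, the median was 0.25, with Acta2 at 0.67, Col1a1 at 0.62, Vim at -0.21 and Thy1 at -0.62. The Thy1 value sets probe 1 alone in NT1p14/TBVp13 against the mean of 2 probes in NT1p12/TBVp13. By probe 1 in both pairs Thy1 was at -0.77. After scaling the arrays to a common spread the NT1 median was -0.05, and the TBV median -0.81. On the 2 arrays of the linking pair, 40.4% and 40.3% of the values were whole numbers. The median absolute deviation of all values was 0.053 and 0.088 there, against 0.096 to 0.59 on the arrays of NT1p14/TBVp13.

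Related mesenchymal genes were described from 5 further lists. Other collagens had a median of 0.32 in NT1p14/TBVp13, 0.14 in NT1p12/TBVp12 and -0.22 in NT1 1/TBV2. In the difference of the first 2 pairs 1 of 7 genes tested passed as higher and 0 as lower. That gene was Col3a1, the fibrillar collagen of reticular fibres, at 0.93 in NT1p14/TBVp13, against -0.45 in NT1p12/TBVp12, a difference of 1.35 ± 0.18 (SE; limma adjusted p = 0.030). It was at -0.62 in NT1 1/TBV2. Col6a3, a partner chain of Col6a1, differed by 0.21 ± 0.14 and was at -0.61 in NT1 1/TBV2, close to the -0.66 of Col6a1. Col18a1 at -0.49 and Col16a1 at 0.37 did not pass.

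Of 12 genes of collagen folding and crosslinking tested, 3 passed as higher and 0 as lower. Serpinh1, the collagen chaperone Hsp47, stood at 1.51 in NT1p14/TBVp13, against -0.50 in NT1p12/TBVp12, and at -0.55 in NT1 1/TBV2 (difference 2.01 ± 0.36 SE, limma adjusted p = 0.032). P4hb, a subunit of prolyl 4-hydroxylase, differed by 1.07 and Crtap, a part of the prolyl 3-hydroxylation complex, by 0.69, while Loxl1 at 1.14 ± 0.44 did not pass (limma adjusted p = 0.091). The list median was 0 in NT1p14/TBVp13 and -0.02 in NT1p12/TBVp12.

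Of 11 matrix glycoprotein and proteoglycan genes tested, 1 passed as higher and 1 as lower. Sparc, a collagen-binding matrix protein, differed by 1.77 ± 0.38 and Mfap4, a microfibril-associated protein, by -0.63 ± 0.16 (SE; limma adjusted p = 0.032 and 0.040). Eln at -0.59 and Fbln2 at 0.68 did not pass. All 14 genes of this list measured in NT1 1/TBV2 were below 0 there, with a median of -0.27.

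Among 11 contractile and cytoskeletal genes tested, 2 passed as higher, the actin crosslinker Flna at 0.90 ± 0.23 and S100a11 at 1.86 ± 0.48 (SE; limma adjusted p = 0.043 for both), and 0 as lower. S100a10 at 2.61 ± 0.88 and Anxa2 at 0.76 ± 0.27, which form a complex at the membrane, did not pass. Their list median was 0.34 in NT1p14/TBVp13, against -0.09 in NT1p12/TBVp12. Among 20 mesenchymal surface, signalling and transcription genes 5 passed as higher and 1 as lower. Itgb1, the beta 1 integrin of matrix receptors, differed by 1.52 ± 0.22, the hyaluronan receptor Cd44 by 1.36 ± 0.33 and the matricellular gene Ccn2 by 1.29 ± 0.33. Snai1, a transcription factor of epithelial to mesenchymal transition, differed by -0.82 ± 0.17, in the opposite direction (SE; limma adjusted p from 0.030 to 0.043 for these 4). Over all genes tested, 753 of 7288 (10.3%) passed as higher and 579 as lower. The single arrays named above, without which 0 of all probes passed, apply to each of these calls.

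Gene lists of other kinds also differed in median between the 2 larger pairs. Ribosomal protein genes were at a median of 0.42 in NT1p14/TBVp13, against -0.45 in NT1p12/TBVp12, and 14 of 34 tested were higher in the difference and 1, Rpl37, lower. Rps4x differed by 1.59, Rpl9 by 1.77 and Rpl14 by 1.55. Cell cycle genes had medians of 0.50 in NT1p14/TBVp13 and -0.50 in NT1p12/TBVp12, and 6 of 16 tested were higher, with Pcna at 2.36, Mcm4 at 1.41, Mcm5 at 1.16 and Rrm2 at 1.03. On arrays 1 to 5 of NT1p14/TBVp13 the 10 fibroblast genes had medians of 0.04, 0.83, 0.75, 0.41 and 0. The ribosomal protein genes had 0, 0.05, 0, 1 and 1 on these arrays, and the cell cycle genes 0, 0.68, 0, 1 and 0.81. The ribosomal protein median was thus high on arrays 4 and 5, which held the most whole numbers, and the fibroblast median was highest on arrays 2 and 3. The cell cycle median was high on arrays 2, 4 and 5, and so shared arrays with each. The median absolute deviation of all values on arrays 1 to 5 was 0.096, 0.22, 0.27, 0.46 and 0.59. List medians of single arrays are therefore not on a common scale. In NT1 1/TBV2 the medians were 0.10 for the ribosomal protein and cell cycle lists, against -0.61 for the 10 fibroblast genes. The part of the ribosomal protein and cell cycle lists in the difference between the larger pairs was not tested.

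Markers of other cell types were set beside these values. Embryonic stem cell markers had medians of -0.25 in NT1p14/TBVp13, -0.14 in NT1p12/TBVp13, -0.50 in NT1p12/TBVp12 and -0.21 in NT1 1/TBV2. All 13 measured were below 0 in NT1p12/TBVp12. In the difference 3 of 12 passed as higher: Lin28a at 1.18, Zfp42 at 1.18 and Pou5f1 at 0.77, while Dppa5a at 0.95 did not. Of parietal endoderm markers 2 of 3 tested passed as higher, Lamc1 at 1.41 and Sparc, which is also in the matrix list, and Lama1 at 0.28 did not. Of 3 epithelial (Krt18, Krt19 and Cldn4), 5 macrophage and blood, and 1 endothelial (Flt1) markers tested, 0 passed. The epithelial ones differed by -0.31 to -0.28, Lyz2 by 0.75, Tyrobp by 0.39, Fcer1g by -0.22, Cd68 by -0.37 and Flt1 by 0.06. Medians of the epithelial list were 0.14 in NT1p14/TBVp13, 0.38 in NT1p12/TBVp13, 0.44 in NT1p12/TBVp12 and 0.07 in NT1 1/TBV2. They rest on 4 or 5 genes, of which 1, 0, 2 and 1 lay below 0 in that order. The table holds ratios without intensities, so which of these markers were expressed at all cannot be read from it, and the part of these cell types was not tested.

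**Figure D4:**
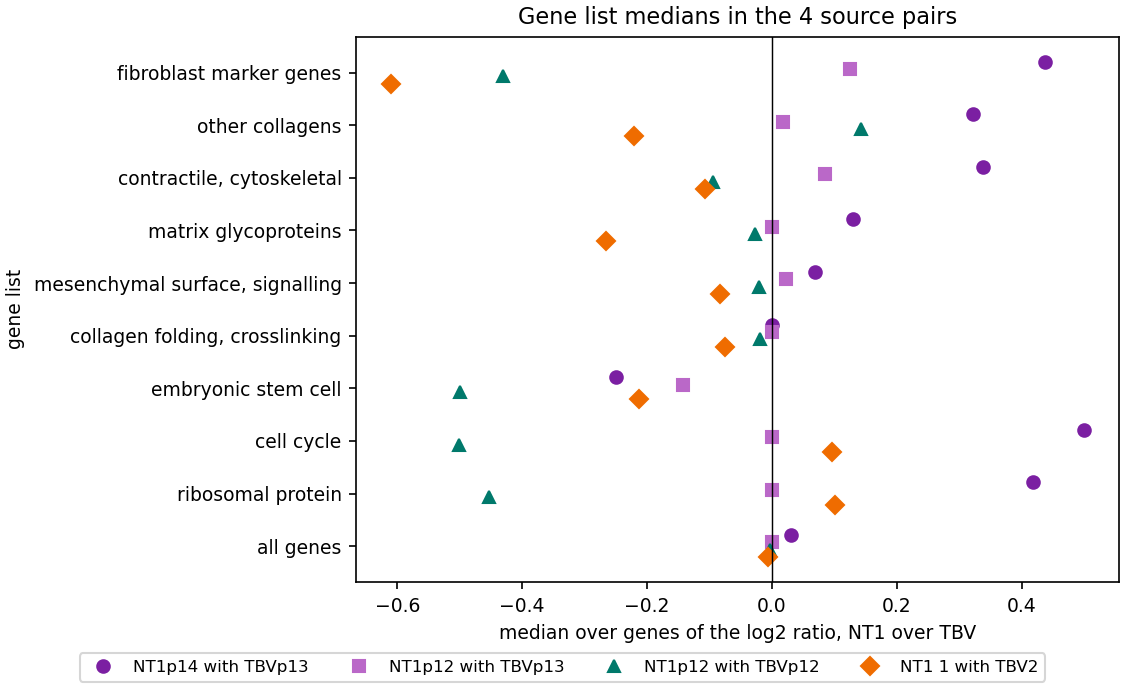
Each symbol is the median over the genes of a list of the log2 ratio of NT1 over TBV in 1 source pair. In NT1 1/TBV2 the fibroblast marker genes lie at -0.61 and the ribosomal protein and cell cycle genes at 0.10. In NT1p14/TBVp13 all 3 lists lie between 0.42 and 0.50. On single arrays of that pair the fibroblast median is highest on arrays 2 and 3 and the ribosomal protein median on arrays 4 and 5. The cell cycle median is high on arrays 2, 4 and 5.

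The genes were compared with each other and with the rest of the array by Pearson correlation over the 13 arrays, as a description, since the arrays share sources. Each gene was set against the mean of the other 9. Col1a1 (r = 0.87), Col5a2 (0.83), Acta2 (0.81), Vim (0.76) and S100a4 (0.74) ran together, Col1a2 was at 0.56, and Col6a1 (0.15), Thy1 (0.14), Lox (-0.18) and Dcn (-0.33) did not run with them. Among 5851 other genes with a value on every array, those most like the mean of the 10 were Inhba (r = 0.91), Fgf7 (0.89), Itgb1 (0.89), Col3a1 (0.89) and Nans (0.88).

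Inhba, a subunit of activin, stood at 0.42 in NT1p14/TBVp13, -0.75 in NT1p12/TBVp12 and -0.999 in NT1 1/TBV2, with whole numbers on all 13 arrays. Fgf7, a growth factor made by mesenchymal cells, stood at 0.28, -0.15 and -0.47 in the same order and at 0.20 in NT1p12/TBVp13, and 0 of its 13 values were whole numbers. Nans, the sialic acid synthase, stood at 0.90, -0.23 and -0.92 in that order.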

How the data were processed

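The deposited values, for 20205 probes on 13 arrays, were read as a log2 ratio between dyes. The log base, numerator and normalisation are not given in the sources used here, and the log2 scale and Cy5 over Cy3 were assumed. Probes were named through the platform annotation (11723 with 1 symbol, 806 with several, 7676 with none). Of the symbols, 11590 matched the RefSeq gene table by Entrez ID and 0 were updated.

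Each array was centred on its median, and arrays with TBV in Cy5 were multiplied by -1. A pair value is the mean of its NT1-in-Cy5 arrays minus the mean of its TBV-in-Cy5 arrays, divided by 2. Pair values of the 3 pairs that share no source were tested against 0 with limma 3.58.1 (R 4.3.3). The difference of the 2 larger pairs was fitted on their 9 arrays with a dye term, for probes with at least 4 and 3 values, and variances were moderated with limma. P-values were adjusted by Benjamini-Hochberg over all probes tested. Both fits were tried on simulated data without rounding or missing values, unlike the deposited values, so those runs do not cover rounding. The number of arrays limits the precision. Named genes were the 10 members, up to 4 genes per list with the smallest p in the difference, and the 5 genes most like the members. The members and lists were chosen with earlier results of these data known. Alternatives covered pairs, dyes, centring, scaling, rounding, missing values and single arrays. Figures were drawn with matplotlib 3.10.9.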

Additional observations from a re-analysis of the deposited data

Results flagged for a closer look

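Of 28 groups of 4 or 5 arrays, 7 had an array far from the others. The rule's chance rate of about 1 in 20 holds for values with decimals and not for whole numbers. Of the 7 values, 6 had been deposited as whole numbers, in groups whose other arrays all read the same, where any step is flagged. In NT1p14/TBVp13 array 4 read 1 for Col1a2 probe 1 against 0 and 2 for Acta2 against 1, and array 1 read 0 for S100a4 against 1. In NT1p12/TBVp12 array 1 read 0 for Col5a2 against -1, array 4 read -1 for Vim probe 1 against 0, and array 3 read 0 for Vim probe 2 against -1. Array 3 also read -0.77 for Thy1 probe 2, against 0.18 on the nearest array.

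NT1p14/TBVp13 differed from NT1p12/TBVp12 in limma by 1.72 for Col1a1 probe 2, 1.09 for Col1a2 probe 2, 1.14 for Col5a2, 1.88 for Acta2, 1.36 for Vim probe 2 and 1.36 for S100a4.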

How the results depend on the processing

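Across the 3 source pairs 0 probes passed under every alternative tried, each pair left out included. The 134 member values across pairs changed sign in 21 cases, none past the threshold. With 4 pairs Col1a1 probe 2 was at 0.077, Acta2 at 0.058 and Vim probe 1 at 0.19. With NT1 in Cy5 only Col1a2 probe 3 was at -0.17, Lox probe 2 at 0.0050 and Vim probe 1 at 0.00084. Col1a1 probe 2 was at 0.0093 with TBV in Cy5 only, Lox probe 2 at 0.063 with scaled arrays and Lox probe 1 at 0.028 with all values rounded. With each pair left out the ranges were -0.58 to 0.12 and -0.60 to 0.26 for the Col1a1 probes, -0.32 to 0.28 for Col1a2 probe 3, -0.37 to 0.018 for Col6a1, -0.14 to 0.14 for Lox probe 2, -0.72 to 0.24 for Acta2, -0.62 to 0.38 for Vim probe 1 and -0.999 to 0.17 for S100a4.

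In the difference of the 2 larger pairs 2308 probes passed, of them 6 member probes. All probes past the threshold numbered 3922 with 13 arrays, 716 without a dye term and 34 with all values rounded, with 9, 5 and 0 member probes, 1890 and 5 with scaled arrays, where Vim probe 1 was at 0.78 and S100a4 at 0.89, and 0 to 2943 (member probes 0 to 7) without 1 array. Without arrays 4 and 5 of NT1p14/TBVp13, added after the data were seen, they were 31 and 0. Leaving out probes of 0 residual variance, also added then, gave 2373 and 6. The cause was not tested. None of 238 member values in this difference changed sign.

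The median of the 10 genes ranged without 1 array from 0.19 to 0.67 in NT1p14/TBVp13 and from -0.49 to -0.26 in NT1p12/TBVp12. In NT1 1/TBV2 it was -0.49 with TBV in Cy5 only and -0.88 with all values rounded. In NT1p12/TBVp13 it was 0 with either dye alone and 0.29 with scaled arrays. The median of NT1p14 minus NT1p12 was -0.046 with scaled arrays, and that of TBVp13 minus TBVp12 was -0.44 with NT1 in Cy5 only and -0.81 with scaled arrays. Replicate numbers were given in accession order and only name arrays, so arrays were not matched by number between source pairs.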
